A study of Mus musculus with 19 samples.

Results

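Voltage-gated potassium channels of the Kv type were described in mouse hippocampus after status epilepticus, a prolonged seizure, with and without the histone methyltransferase EZH2 in neurons. The genes were chosen by name: the symbols Kcna, Kcnb, Kcnc, Kcnd, Kcnf, Kcng, Kcnh, Kcnq, Kcns and Kcnv followed by a number, the genes of the pore-forming alpha subunits. They came to 40 of the 55416 genes in the table, and 37 of them passed the filter on low counts, as did 19234 genes in all. Kcna7 and Kcna10, with 0 to 2 reads per library, and Kcnv2, with 0 to 8, did not pass it and were not tested.

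A Kv channel is a ring of alpha subunits that opens when a neuron depolarizes and lets potassium out, which repolarizes the membrane and limits repeated firing. The families differ in where and when they act. Kv1 channels (Kcna) sit on axons, Kv2 (Kcnb) on cell bodies, Kv4 (Kcnd) on dendrites, where they carry the fast A-type current, and Kv3 (Kcnc) are known for the brief spikes of fast-firing interneurons. Kv7 subunits, those of Kcnq3 and Kcnq5 among them, carry the M-current, a slow brake on firing, and the Kcnh genes encode the EAG, ERG and ELK channels. The Kcnf, Kcng, Kcns and Kcnv subunits are electrically silent: they form no channel of their own and join Kv2 subunits to change how those open.

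All mice were C57BL6 and carried 1 copy of Synapsin1-Cre, a recombinase driven by a neuronal promoter, so that recombination was directed to neurons and not to glia. WT mice had the genotype EZH2(+/+);Syn1Cre(+/-) and EZH2nHom mice the genotype EZH2(-/-);Syn1Cre(+/-), from floxed EZH2 alleles. Mice of each genotype received saline or repeated low doses of kainate, a glutamate receptor agonist that induces status epilepticus, and the hippocampus was taken 4 days later. The sample labels name the right side by "R. Hippocampus", while the design text speaks of whole hippocampi. Libraries were made from rRNA-depleted RNA: 5 each for WT after saline, WT after kainate and EZH2nHom after saline, and 4 for EZH2nHom after kainate, 19 in all. EZH2 is the catalytic subunit of PRC2, a complex that places a repressive mark on histone H3 and is known to be found at CpG-rich promoters. Age is not among the labels used here, and nothing in them says that each library came from a different animal, so the p-values measure the spread between these libraries.

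Libraries held 24496685 to 43948317 reads assigned to genes, of which 35856 to 81682 fell on the 40 Kv genes. Ezh2 itself was at 9.61 to 12.9 CPM (read counts scaled to library size) in WT saline and 11.8 to 15.5 CPM in EZH2nHom saline, and at 10.7 to 20.3 CPM and 14.5 to 19.6 CPM after kainate. It was thus not lower in the libraries labelled EZH2nHom, and this gene-level count over all cells of the tissue did not check the label. EZH2nHom kainate replicate 2 stood apart on the second principal component (-108.5, against -19 to 27.5 in the other libraries). Reads on the Y chromosome's genes were all but missing in 2 libraries of each WT group, 1 of EZH2nHom kainate and 0 of EZH2nHom saline, so the sexes were not evenly spread. The share of reads in 7 gene entries for abundant structural RNAs was 0.0283 to 0.0561% in WT saline. In EZH2nHom saline it was 0.147 to 0.676%, and the 2 ranges did not overlap. The date-like prefix of the sample codes was never shared between genotypes, so prefix and genotype cannot be told apart.

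Among the promoters, those of Kcng3 and Kcna3 are shown because Kcng3 fell most after kainate in both genotypes and Kcna3 was lower in EZH2nHom after both treatments. RefSeq windows (GRCm38.p6) from 250 bases before to 50 after the start site were found for 25 of the 40 genes, 30 windows in all. In these windows Kcng3 had 49 CG pairs, the most of any, followed by Kcnc1 with 41 and Kcna3 with 37. Next came Kcns3 (32, and 9 in its other window) and Kcna2 (31), which passed in no comparison of the main fit. The windows of Kcnc2, which fell after kainate in EZH2nHom, held 3 to 6. The median was 19.5 over the Kv windows and 7 over all 32851 windows. Whether CG pairs bear on the changes was not tested. The 250 bases before the Kcng3 start, chr17:83631896-83632145 on the minus strand, hold 41 CG pairs. The same stretch of Kcna3, chr3:107035912-107036161 on the plus strand, holds 31. Both are written 5′ to 3′ with the CG pairs in capitals.
Kcng3: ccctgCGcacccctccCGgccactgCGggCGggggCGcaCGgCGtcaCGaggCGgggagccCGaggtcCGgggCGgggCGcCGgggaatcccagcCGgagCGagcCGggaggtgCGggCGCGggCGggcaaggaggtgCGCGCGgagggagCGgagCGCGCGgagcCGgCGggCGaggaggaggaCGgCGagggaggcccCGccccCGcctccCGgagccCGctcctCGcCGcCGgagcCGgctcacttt
Kcna3: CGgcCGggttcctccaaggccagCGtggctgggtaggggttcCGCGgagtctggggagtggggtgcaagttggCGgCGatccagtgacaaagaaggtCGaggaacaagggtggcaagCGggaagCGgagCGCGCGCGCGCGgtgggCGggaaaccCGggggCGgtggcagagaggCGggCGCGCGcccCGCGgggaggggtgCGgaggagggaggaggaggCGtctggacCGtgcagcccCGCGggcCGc
Runs of CG pairs reach from end to end in the Kcng3 stretch, whereas in Kcna3 most lie in the part nearer to the start site. The activity-related motif CRE (TGACGTCA) was in 0 of the 30 Kv windows and in 1.79% of all windows, AP-1 (TGANTCA) in 0 and 7.81%, and the STAT motif GAS (TTCNNNGAA) in 0 and 8.3%, searched on both strands.

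Kv transcripts differed widely in level in WT saline hippocampus. On a per-length scale, CPM per kilobase of exon, the Kv4 gene Kcnd2 ranked first at 27.2 ± 1.9 (SD, n = 5). The axonal Kv1 genes Kcna2 (19.4 ± 0.972) and Kcna1 (17.4 ± 1.04) were also high, as were the Kv3 gene Kcnc2 (14.3) and the Kv7 gene Kcnq3 (14.1). Kcnd2 did not overlap with any other Kv gene in any library, while Kcna2 and Kcna1 overlapped with the next. Among the silent subunits Kcnf1 stood highest per kilobase at 10.7 ± 0.498, with Kcnv1 at 9.24 ± 0.951, and Kcng3 (2.26 ± 0.336) and Kcng2 (2.16 ± 0.231) were far lower. The low end held Kcnd1 at 0.851 ± 0.0882 and, last of the 37 tested, the Kv7 gene Kcnq1 at 0.0752 ± 0.0305.

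By family, the Kv1 genes made up 25.6 ± 0.671% (SD, n = 5) of the summed per-length Kv level in WT saline and the Kv7 genes 17.5 ± 0.395%. The 10 silent subunits together held 15 ± 0.34%, Kv4 14.3 ± 0.576%, Kv3 12.5 ± 0.745%, the Kcnh genes 9.11 ± 0.279% and Kv2 5.93 ± 0.221%. In EZH2nHom saline the Kv3 share was 9.27 to 10.7%, below the 11.9 to 13.7% of WT saline in every library. The Kv7 share also lay lower, at 15 to 16.5% against 17.1 to 18%, and the Kcnh share lay higher, at 10.1 to 10.9% against 8.74 to 9.41%. These shares are a description and were not tested.

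Kainate in WT mice left nearly all Kv transcripts without a called change. Of the 37 tested, 2 passed (adjusted p under 0.05), 5.41%, against 12% of all genes tested. The silent subunit gene Kcng3 fell and the Kv4 gene Kcnd1 rose. Over the 37 genes the median log2 change was -0.10, with 27 below 0, and over all genes it was -0.02, with 52.4% below 0. Calls in WT were mostly upward over all genes, 9.47% higher and 2.57% lower.

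Kcng3, whose product joins Kv2 channels, was at 7.15, 8.29, 6.95, 6.36 and 9.16 CPM in WT saline replicates 1 to 5 and at 4.42, 2.93, 2.39, 2.43 and 2.64 CPM after kainate. Every kainate library was below every saline library. The log2 change was -1.35 ± 0.19 (SE, adjusted p = 0.00021), 0.392 times the saline level. Kcng2, another silent subunit gene, was at 6.19, 5.99, 7.54, 5.82 and 6.67 CPM in WT saline and at 4.29, 4.48, 1.85, 4.04 and 5.06 CPM after kainate. Its groups did not overlap either, but its log2 change of -0.70 ± 0.24 did not pass (adjusted p = 0.0685). Exons of Kcng2 overlap D330025C20Rik on the opposite strand over 9.1% of their length, and whether counting used strand is not given in the sources used here. With Kcng3 and Kcng2 as the 2 lower and Kcnd1 as the 1 higher, 3 of 37 Kv genes had groups that did not overlap, against 14.4% of all genes, 4.63% lower and 9.79% higher.

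Kcnd1, a Kv4 subunit of low level, was at 4.83, 4.8, 3.82, 4.2 and 4.84 CPM in WT saline and at 6.75, 6.17, 6.1, 6.63 and 5.62 CPM after kainate. All kainate libraries were above all saline libraries. The log2 change was 0.47 ± 0.15 (adjusted p = 0.0487). It no longer passed when any 1 WT library other than kainate replicate 5 was left out (adjusted p = 0.0794 to 0.141). Nor did it pass with DESeq2 size factors (adjusted p = 0.0543), no filter (adjusted p = 0.103) or a stricter filter (adjusted p = 0.0572). With the structural RNA share as a covariate the change was 0.43 (adjusted p = 0.251). Kcnd2, the main Kv4 subunit of dendrites, gave 152, 146, 141, 129 and 131 CPM in WT saline and 132, 131, 106, 83 and 157 CPM after kainate. Its groups overlapped and its log2 change of -0.20 ± 0.13 did not pass (adjusted p = 0.364).

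The Kv3 genes varied widely between the WT kainate libraries. Kcnc2, a subunit of fast-firing neurons, was at 108, 91.3, 93.7, 103 and 115 CPM in WT saline and at 100, 82.7, 53.4, 48.8 and 94.7 CPM after kainate, with replicates 3 and 4 at about the same low level. Its log2 change of -0.43 ± 0.16 did not pass (adjusted p = 0.0961), but passed with the replicate number as a block (adjusted p = 0.0377), without WT kainate replicate 1 (-0.56, adjusted p = 0.0309) and without replicate 5 (-0.52, adjusted p = 0.0478). Kcnc1, of the same family, was at 65.2, 66.9, 62.5, 59.8 and 78.3 CPM in WT saline and at 67.3, 54.9, 45.9, 38.7 and 59.2 CPM after kainate. The log2 change was -0.32 ± 0.14 (adjusted p = 0.148), and -0.43 (adjusted p = 0.0476) without WT kainate replicate 1.

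The axonal Kv1 transcripts Kcna1 and Kcna2 stayed within overlapping ranges in WT. Kcna1 was at 85.7, 87.6, 83.4, 74.7 and 84.3 CPM in WT saline and at 87.2, 82.4, 72.3, 69.4 and 90.2 CPM after kainate (log2 change -0.05 ± 0.09). Kcna2 was at 227, 233, 236, 213 and 244 CPM and then at 277, 250, 214, 160 and 237 CPM (-0.02 ± 0.12). In both genes WT kainate replicate 4 was the lowest of the 10 WT libraries.

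**Figure D1:**
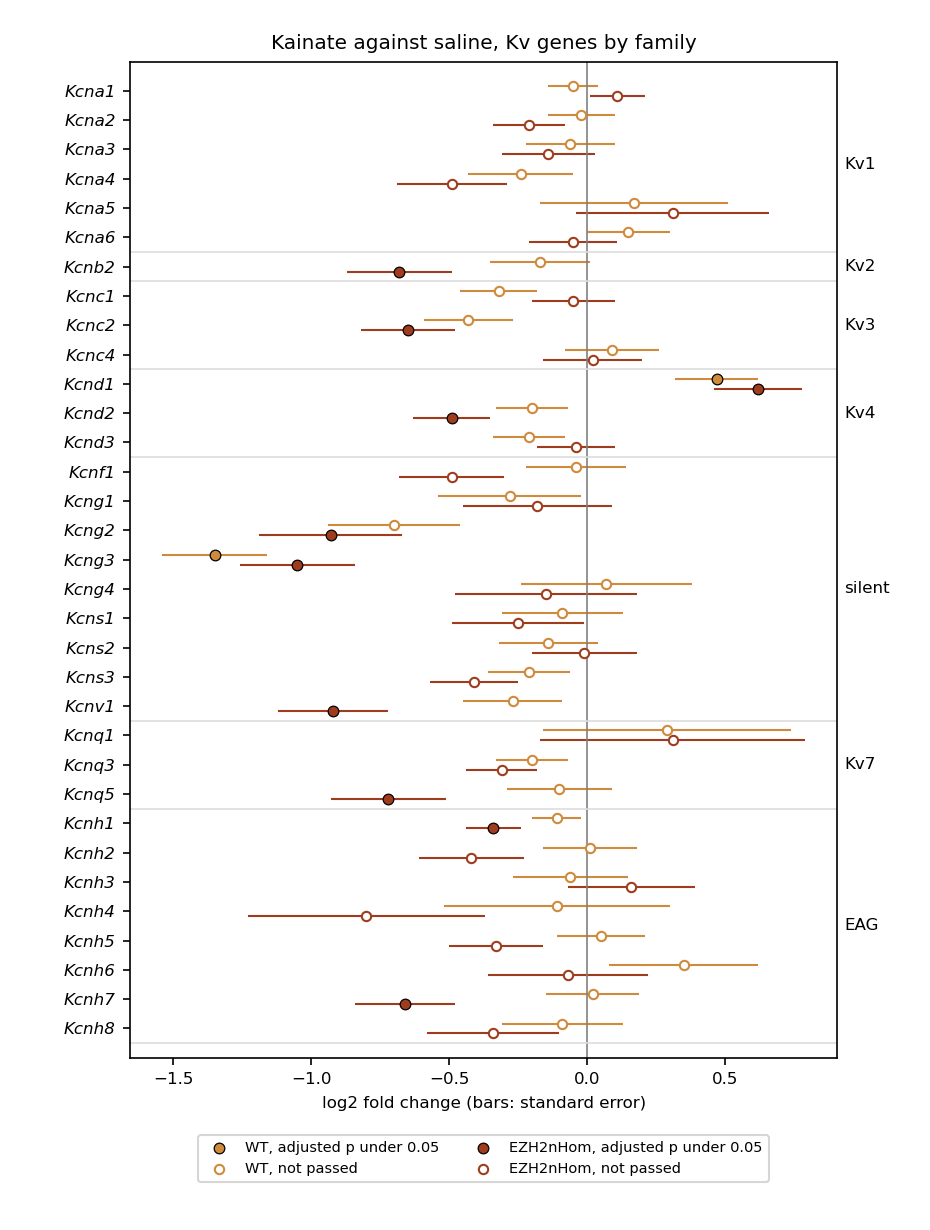
Log2 fold change of kainate against saline (x axis, bars show 1 standard error) for tested Kv genes by family, in WT and in EZH2nHom, with filled points for adjusted p under 0.05. In WT 2 points are filled, Kcng3 at -1.35 and Kcnd1 at 0.47, and in EZH2nHom 10 are filled, 9 of them left of 0.

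The same comparison in EZH2nHom mice called more Kv genes. Here 10 of 37 passed, 27%, which is close to the 26.1% of all genes tested. Of these 9 fell and 1 rose, while over all genes 11.8% fell and 14.3% rose. The median log2 change was -0.21 over the 37 Kv genes, with 29 below 0, and -0.02 over all genes. The 9 that fell came from 6 of the 7 families, with none from Kv1, and in each of them every kainate library was below every saline library. Over all genes 19.2% did not overlap, 9.23% lower and 9.93% higher.

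Of the 9 tested silent subunit genes 3 fell: Kcng3, Kcng2 and Kcnv1. Kcng3 was at 5.82, 5.55, 6.13, 5.72 and 5.47 CPM in EZH2nHom saline and at 3.24, 3.67, 2.4 and 1.76 CPM after kainate, a log2 change of -1.05 ± 0.21 (adjusted p = 0.00105). Kcnv1, a silent subunit gene, was at 52.2, 52.4, 45.5, 42.3 and 77.2 CPM in saline, with replicate 5 well above the others, and at 31.6, 22.6, 36.3 and 23.6 CPM after kainate. Its log2 change was -0.92 ± 0.20 (adjusted p = 0.00225). Kcng2 went from 5.15, 5.88, 4.68, 5.69 and 4.37 CPM to 3.74, 1.32, 2.31 and 3.4 CPM, a log2 change of -0.93 ± 0.26 (adjusted p = 0.0141) that did not pass in a fit to these 9 libraries alone (-0.87, adjusted p = 0.0611). In the main fit Kcng3 was the 1 Kv gene that fell in both genotypes, which 1.62% of all genes did. Kcnd1 was the 1 that rose in both in that fit, which 8.16% did.

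Their partner gene Kcnb2, a pore-forming Kv2 subunit, fell as well. It was at 60.8, 60.1, 55.7, 49.4 and 50.2 CPM in EZH2nHom saline and at 41.1, 29.8, 40.8 and 25.8 CPM after kainate (log2 change -0.68 ± 0.19, adjusted p = 0.0119). In WT, Kcnb2 was at 56.7, 54.6, 53.9, 45.9 and 51.1 CPM in saline and at 64.9, 54.1, 40.2, 25.9 and 47.2 CPM after kainate, ranges that overlapped (-0.17 ± 0.18).

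Kcnd2 and Kcnd1, both of the Kv4 family, moved in opposite directions. Kcnd2 was at 159, 165, 135, 146 and 148 CPM in EZH2nHom saline and at 118, 91.4, 123 and 97.4 CPM after kainate (log2 change -0.49 ± 0.14, adjusted p = 0.0127). Kcnd1 was at 2.46, 3.93, 2.67, 3.25 and 4.16 CPM in saline and at 5.98, 5.06, 4.02 and 5.19 CPM after kainate, where replicate 3 overlapped with saline replicate 5. Its log2 change was 0.62 ± 0.16 (adjusted p = 0.00827), which did not pass in the fit to these 9 libraries alone (0.67, adjusted p = 0.0569). Kcnd3 did not pass in either genotype.

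Among the Kv3 genes Kcnc2 fell, from 79, 85.4, 77.2, 69.2 and 79.8 CPM to 51, 52.8, 56.7 and 39.1 CPM (log2 change -0.65 ± 0.17, adjusted p = 0.00981). Kcnc1 was at 36.3, 46.6, 41.1, 43.5 and 50.7 CPM in EZH2nHom saline and at 40.7, 54, 37.6 and 36.4 CPM after kainate (-0.05 ± 0.15, not passed). The Kcnc1 groups overlapped.

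Among the M-current genes, Kcnq5 fell, and Kcnq3 (-0.31 ± 0.13, adjusted p = 0.0941) did not pass, but did with the sex covariate (-0.40, adjusted p = 0.017) or the replicate block (-0.29, adjusted p = 0.0287). Kcnq5 was at 82, 86.7, 77.9, 78.5 and 80.9 CPM in EZH2nHom saline and at 47.6, 55.7, 56.7 and 37.2 CPM after kainate, with tight saline values and no overlap. Its log2 change was -0.72 ± 0.21 (adjusted p = 0.016), and it did not pass without kainate replicate 1 (-0.67, adjusted p = 0.0503) or replicate 4 (-0.61, adjusted p = 0.0615). In WT, Kcnq5 was at 77.7, 49.8, 62.7, 67.4 and 78 CPM in saline and at 82.5, 69.9, 41.4, 35.9 and 82.1 CPM after kainate, so that kainate replicates 3 and 4 lay low and the rest did not.

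Kcnh7, an ERG channel gene, was at 141, 144, 107, 105 and 134 CPM in EZH2nHom saline and at 93.4, 71.2, 86.9 and 67 CPM after kainate (log2 change -0.66 ± 0.18, adjusted p = 0.0123). In WT it was at 112, 123, 101, 94.3 and 94.7 CPM in saline and at 138, 123, 91.1, 59.3 and 121 CPM after kainate, which overlapped (0.02 ± 0.17). Kcnh1, the EAG channel gene, went from 45.4 to 50.9 CPM in EZH2nHom saline to 34.6 to 40.1 CPM after kainate (-0.34 ± 0.10, adjusted p = 0.0168). That change did not pass without kainate replicate 1 (-0.28, adjusted p = 0.0872) or replicate 4 (-0.31, adjusted p = 0.0542).

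The Kv1 genes with fixed places in the description did not pass in EZH2nHom. Kcna1 was at 80.2, 89.7, 77.7, 79.5 and 76.2 CPM in saline and at 77.5, 108, 86.2 and 76.6 CPM after kainate (log2 change 0.11 ± 0.10). Kcna2 was at 216, 212, 198, 168 and 194 CPM and then at 169, 204, 174 and 137 CPM (-0.21 ± 0.13). The groups overlapped for both.

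**Figure D2:**
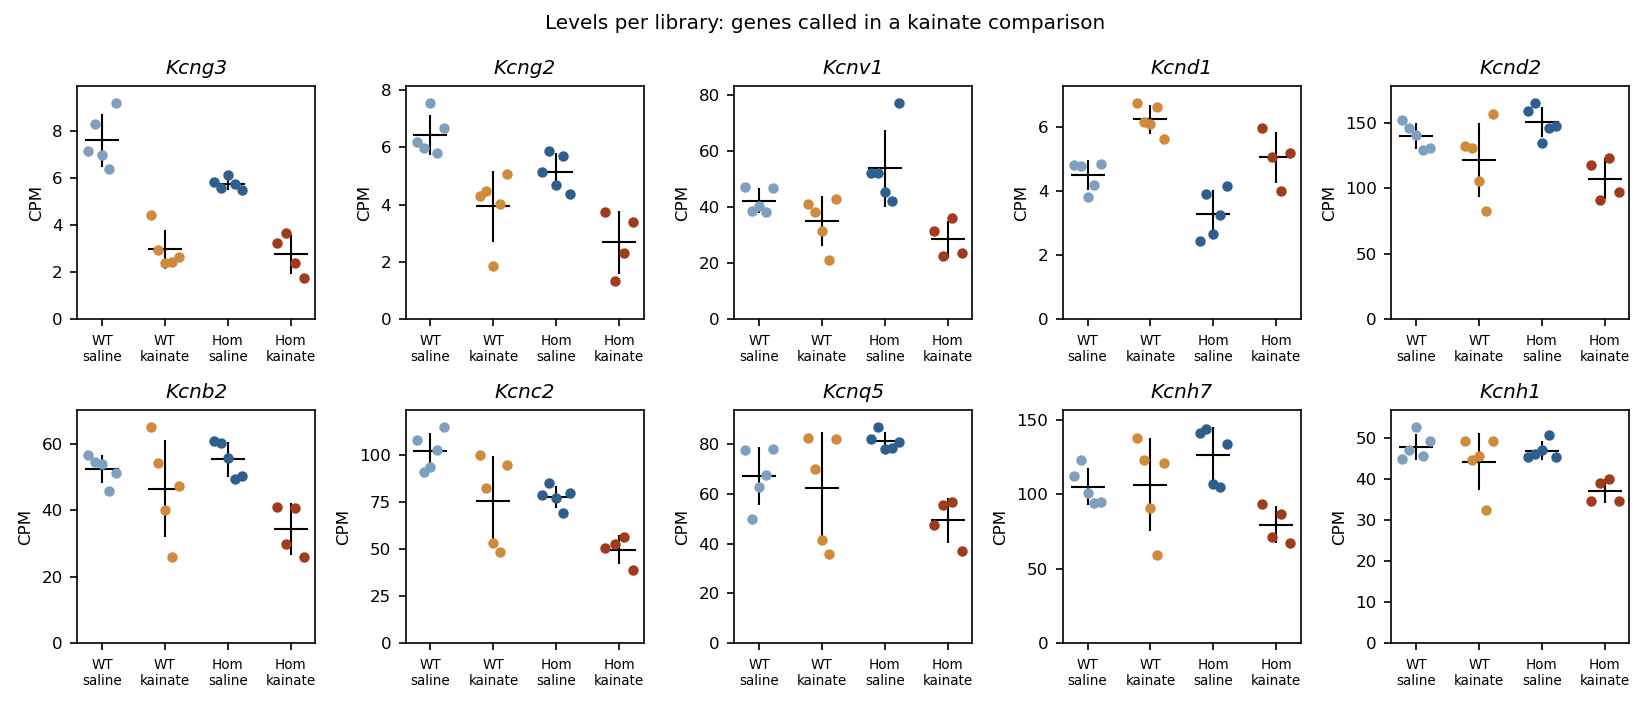
CPM (y axis) in each library of the 4 groups for the 10 Kv genes called in a kainate comparison, where a point is a library, the horizontal line the group mean and the vertical bar the SD; Hom stands for EZH2nHom. Kcng3 is lower after kainate in both genotypes without overlap, whereas Kcnq5 and Kcnh7 are low in every EZH2nHom kainate library and in only some of the WT kainate libraries.

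Markers of other cells and of neurons also changed after kainate. In bulk tissue, fewer cells of a type and less RNA per cell cannot be told apart. Of the microglia markers 10 of 10 rose in WT and 9 of 10 in EZH2nHom, with summed levels of 430 to 484 CPM in WT saline, 830 to 2640 CPM in WT kainate, 372 to 419 CPM in EZH2nHom saline and 1410 to 2730 CPM in EZH2nHom kainate. Of the pan-neuronal markers 0 of 16 passed by edgeR in WT, where 3 had an unadjusted p under 0.05, all higher after kainate (Tubb3, Nefm and Nefh). In EZH2nHom 6 of 16 fell. Their sums were 6610 to 7330 CPM in WT saline, 5060 to 7600 CPM in WT kainate, 7680 to 8470 CPM in EZH2nHom saline and 5290 to 7040 CPM in EZH2nHom kainate. Of the interneuron markers 3 of 9 fell in WT and 7 of 9 in EZH2nHom, with sums of 753 to 804, 518 to 648, 766 to 864 and 457 to 668 CPM in the same order of groups. Of the dentate granule cell markers 4 of 7 fell in WT (286 to 426 CPM in saline, 209 to 278 CPM after kainate) and 3 of 7 in EZH2nHom (306 to 398 and 235 to 327 CPM), while 1 of the 7, Plekha2, rose in both. Of the CA1 and CA3 pyramidal cell markers 0 of 9 passed by edgeR in WT (2 at an unadjusted p under 0.05; 469 to 543 CPM in saline, 268 to 512 CPM after kainate) and 4 of 9 fell in EZH2nHom (426 to 465 and 274 to 374 CPM, without overlap). Of the oligodendrocyte lineage markers 1 of 10 fell in WT (5260 to 7280 and 4620 to 8350 CPM) and 3 of 10 in EZH2nHom (6110 to 9610 and 3580 to 6000 CPM, without overlap). No marker of these 6 lists was at 0 in a whole group, and their part in the Kv changes was not tested.

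Within the WT kainate group the Kv genes and the microglia markers varied in opposite order. The summed level of the 40 Kv genes was 2330, 2080, 1790, 1410 and 2180 CPM in replicates 1 to 5, and the mean log2(CPM + 1) of the microglia markers was 6.01, 6.41, 7.19, 7.68 and 6.31. Replicate 4 had the lowest Kv sum and the highest microglia level of its group, with the lowest pan-neuronal level of all libraries (7.37), and replicate 1 had the highest Kv sum and the lowest microglia level. WT saline libraries had Kv sums of 1970 to 2260 CPM and EZH2nHom saline libraries of 1770 to 2050 CPM. All 4 EZH2nHom kainate libraries, at 1620, 1690, 1640 and 1380 CPM, were below every saline library. Their microglia levels were 7.12, 6.45, 6.84 and 7.72, again in opposite order to the Kv sums.

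**Figure D3:**
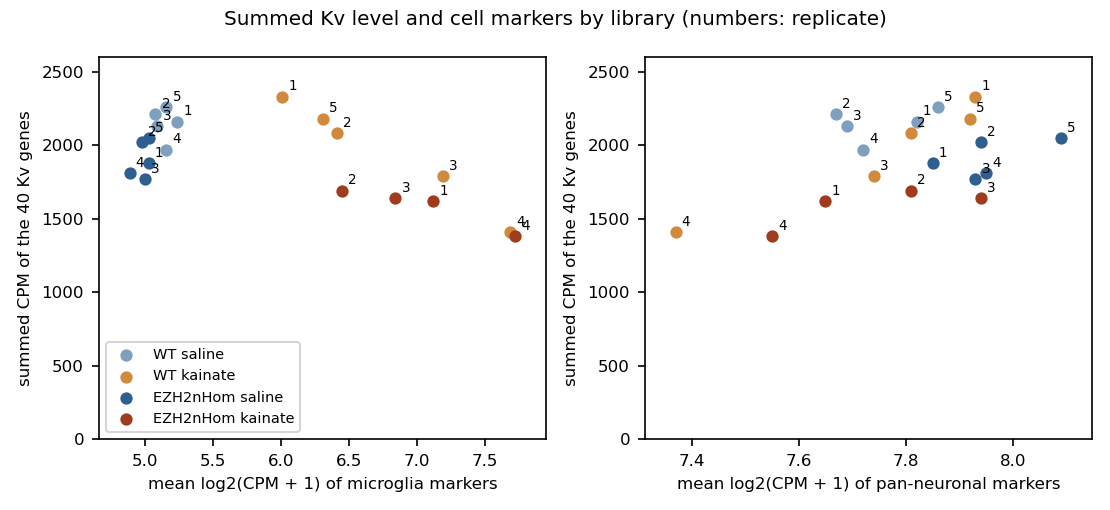
Summed CPM of the 40 Kv genes (y axis) in each library against the mean log2(CPM + 1) of microglia markers (left) and of pan-neuronal markers (right), with the replicate number beside each point. The WT kainate points run from 2330 CPM at a microglia level of 6.01 to 1410 CPM at 7.68, and the EZH2nHom kainate points lie between 1380 and 1690 CPM.

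The difference between the 2 kainate responses was tested for each gene, since a call in one genotype and not in the other does not show that they differ. By edgeR 0 of 37 Kv genes passed, as did 0% of all genes tested, and DESeq2 called 0 Kv genes. At an unadjusted p under 0.05 there were 3 of 37 Kv genes, beside 1685 of all 19234 genes tested, which is a similar share. All 3 had a more negative response in EZH2nHom: Kcnh7 (-0.68 ± 0.25, adjusted p = 0.482), Kcnv1 (-0.64 ± 0.27, adjusted p = 0.528) and Kcnq5 (-0.61 ± 0.28, adjusted p = 0.562). For Kcng3 the difference was 0.30 ± 0.28, and 2 SE to either side ran from -0.26 to 0.86. For Kcnd1 it was 0.15 ± 0.22, and 2 SE to either side ran from -0.30 to 0.59. Over the 37 genes the median difference was -0.19, and over all genes -0.02.

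The genotypes were then compared after saline, which asks how mice with the neuronal EZH2 deletion differ in the absence of seizures. Of the 37 Kv genes 4 passed, 10.8%, and all 4 were lower in EZH2nHom, the Kv3 gene Kcnc1 and the Kv1 gene Kcna3 among them. Over all genes 13.5% passed, 8.33% higher and 5.16% lower. The median log2 difference was -0.10 over the Kv genes and 0.02 over all genes. Groups did not overlap for 6 Kv genes, all lower, with Kcnc1, Kcna3, Kcnc2, Kcng3 and Kcng4 among them, against 21.3% of all genes, 8.42% lower and 12.9% higher.

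The M-current gene Kcnq3 was at 212, 232, 214, 172 and 208 CPM in WT and at 172, 176, 148, 150 and 175 CPM in EZH2nHom, where WT replicate 4 overlapped. That difference of -0.34 ± 0.13 did not pass (adjusted p = 0.0801). It passed by DESeq2 (-0.36, adjusted p = 0.041), in a fit to these 10 libraries alone (-0.37, adjusted p = 0.00338), with the replicate number as a block (-0.34, adjusted p = 0.0143) and without WT saline replicate 4 (-0.45, adjusted p = 0.04), and was at -0.12 (adjusted p = 0.783) with the structural RNA share as a covariate.

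Kcna3, a Kv1 gene also known from lymphocytes and microglia, had the largest genotype difference in size of the Kv genes that passed. It was at 8.83, 8.96, 7.05, 6.63 and 9.09 CPM in WT saline and at 3.87, 5.67, 3.67, 5.72 and 6.45 CPM in EZH2nHom saline, close to each other but without overlap (-0.68 ± 0.16, adjusted p = 0.00811). Of the 10 microglia markers 0 passed in this comparison, with sums of 430 to 484 CPM in WT and 372 to 419 CPM in EZH2nHom, which did not overlap; 1 of the 10 had an unadjusted p under 0.05. Whether they bear on Kcna3 was not tested.

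For the Kv3 genes the values per library are those given above. Kcnc1 ran from 59.8 to 78.3 CPM in WT and from 36.3 to 50.7 CPM in EZH2nHom, without overlap (log2 difference -0.61 ± 0.14, adjusted p = 0.00595). Kcnc2 ran from 91.3 to 115 CPM and from 69.2 to 85.4 CPM, without overlap as well, but the difference of -0.39 ± 0.16 did not pass (adjusted p = 0.121) except in the fit to these 10 libraries alone (-0.42, adjusted p = 0.00076). Of the interneuron markers, which include the fast-firing cell gene Pvalb, 1 of 9 was higher and 0 lower, with sums of 753 to 804 CPM in WT and 766 to 864 CPM in EZH2nHom.

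Pan-neuronal markers went the other way from these 4 Kv genes after saline: 3 of 16 were higher in EZH2nHom and 0 lower, and their sums did not overlap (6610 to 7330 CPM in WT, 7680 to 8470 CPM in EZH2nHom). With the structural RNA share as a covariate Kcna3 was the 1 of the 4 that still passed (-0.94, adjusted p = 0.0322), while Kcnc1 was at -0.47 (adjusted p = 0.221). In a fit to these 10 libraries alone 14 Kv genes passed. The share over all genes in that fit is not given here, so the count does not show a change particular to Kv genes.

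**Figure D4:**
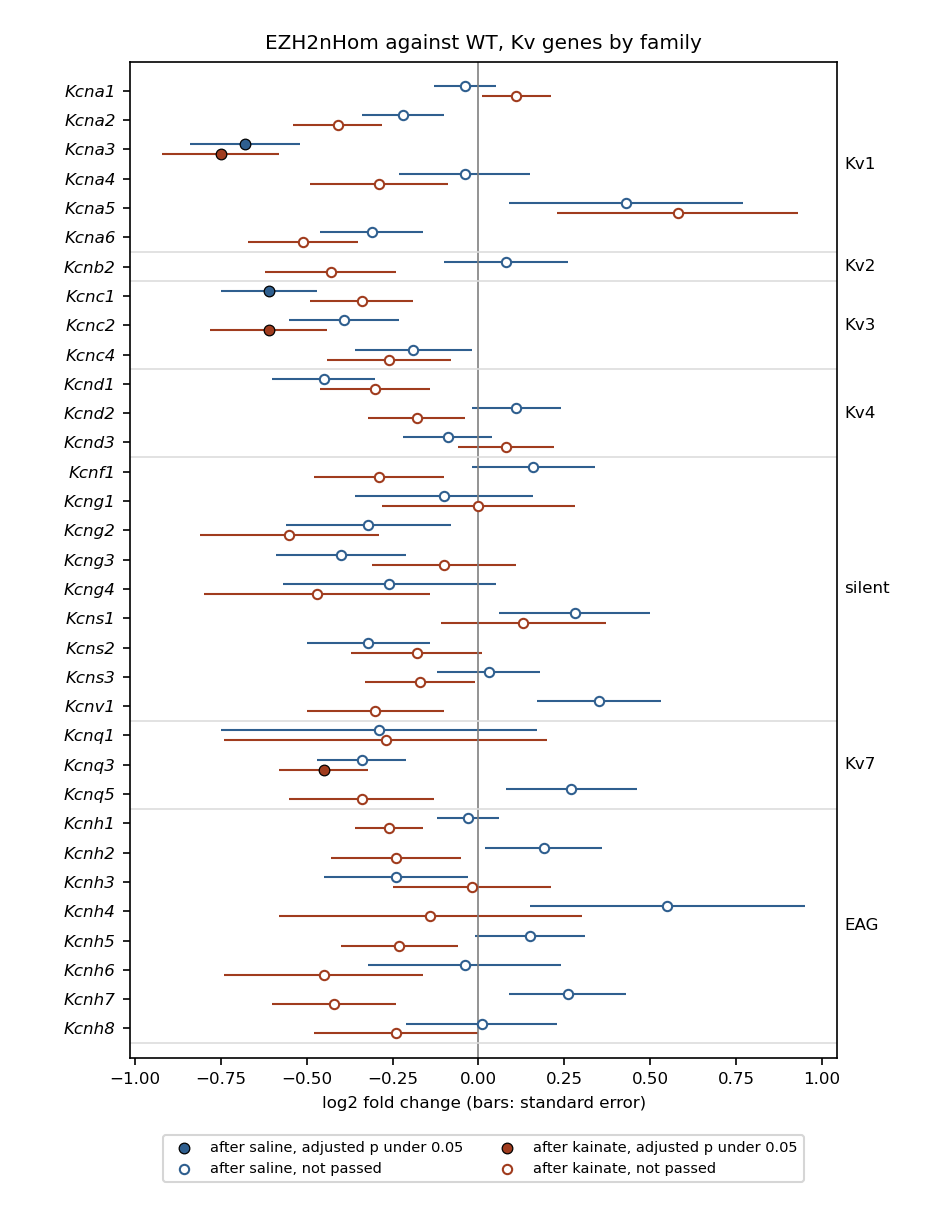
Log2 fold change of EZH2nHom against WT (x axis, bars show 1 standard error) after saline and after kainate for tested Kv genes by family, with filled points for adjusted p under 0.05. All filled points lie left of 0, and Kcna3 is filled after both treatments.

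After kainate, 4 of 37 Kv genes passed between genotypes, again all lower in EZH2nHom, with Kcna3, Kcnc2 and Kcnq3 among them. The share over all genes was 7.61%, with 4.56% higher and 3.04% lower. Over the 37 genes the median log2 difference was -0.26, with 33 below 0, and over all genes it was 0. After both treatments 2 Kv genes were lower in EZH2nHom, Kcna3 among them, as were 1.49% of all genes, and 0 Kv genes were higher after both, as were 2.94% of all genes. Groups did not overlap for 2 Kv genes, Kcna3 and Kcna6, against 7.26% of all genes, 3.13% lower and 4.13% higher.

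Kcna3 was at 8.45, 7.36, 8.35, 7.49 and 7.14 CPM in WT kainate and at 5.63, 3.78, 4.3 and 4.75 CPM in EZH2nHom kainate, close to its levels after saline in each genotype (log2 difference -0.75 ± 0.17, adjusted p = 0.0147). It passed without each library in turn and did not pass in the fit to these 9 libraries alone (adjusted p = 0.153). Kcnq3 was at 219, 193, 154, 128 and 206 CPM in WT and at 156, 134, 122 and 117 CPM in EZH2nHom, with overlap through WT replicates 3 and 4 (-0.45 ± 0.13, adjusted p = 0.0474). In Kcnc2 the same 2 WT replicates, at 53.4 and 48.8 CPM, overlapped the 39.1 to 56.7 CPM of EZH2nHom kainate (-0.61 ± 0.17, adjusted p = 0.0387).

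The calls of Kcnq3 and Kcnc2 depended on single libraries. Both failed to pass without WT kainate replicate 1 (-0.36 and -0.49, adjusted p = 0.15 and 0.124), WT kainate replicate 2 (adjusted p = 0.124 and 0.0993), WT kainate replicate 5 (adjusted p = 0.108 and 0.0946), EZH2nHom kainate replicate 2 (adjusted p = 0.0737 and 0.0601) and EZH2nHom kainate replicate 4 (adjusted p = 0.104 and 0.0938). Kcnq3 also failed without EZH2nHom kainate replicate 3 (adjusted p = 0.0924) and Kcnc2 without EZH2nHom kainate replicate 1 (adjusted p = 0.055). Without WT kainate replicate 4, the library with the lowest Kv sum of its group, 10 Kv genes passed, Kcna2 (-0.51, adjusted p = 0.00809) and Kcnc1 (-0.43, adjusted p = 0.0478) among them. That count stands without the share over all genes in the same fit, so it is not a result about Kv genes in particular. With all libraries Kcna2 was at -0.41 ± 0.13 (adjusted p = 0.0594; 0.0283 by DESeq2, 0.0252 with the replicate block and 0.0289 without EZH2nHom kainate replicate 2) and Kcnc1 at -0.34 ± 0.15 (adjusted p = 0.167).

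**Figure D5:**
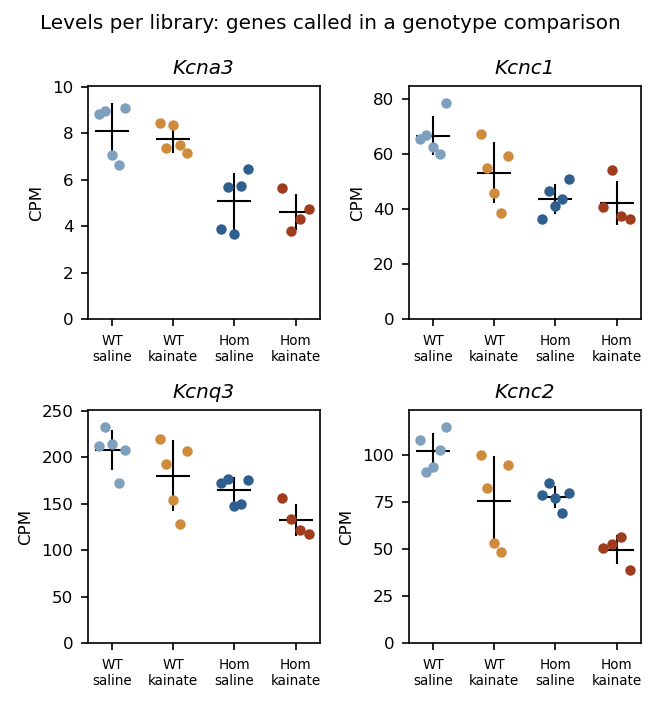
CPM (y axis) in each library of the 4 groups for 4 Kv genes called in a genotype comparison, where a point is a library, the horizontal line the group mean and the vertical bar the SD; Hom stands for EZH2nHom. Kcna3 separates the genotypes after both treatments, while Kcnq3 and Kcnc2 overlap after kainate through the lowest WT kainate libraries.

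Altogether 15 of the 37 tested Kv genes passed in at least 1 of the 5 comparisons and 22 in none. Those 22 include Kcna1, Kcna2, Kcna4, Kcna5 and Kcna6 of Kv1, Kcnc4, Kcnd3, Kcnq1, 6 silent subunit genes and 6 of the 8 Kcnh genes. Kcna6, which had a log2 genotype difference of -0.51 ± 0.16 after kainate (adjusted p = 0.0526), shares 39.6% of its exon length with the opposite-strand gene Gm26673.

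Proteins that bind Kv channels were listed apart from the pore-forming genes. Of the auxiliary subunits 13 of 15 were tested. In WT after kainate Kcnip3, which encodes a calcium-binding KChIP protein of Kv4 channels, rose (0.45 ± 0.10, adjusted p = 0.00541) and Kcnip2, of the same family, fell (-0.79 ± 0.21, adjusted p = 0.0199), with 11 not passed. In EZH2nHom 2 rose and 4 fell: Kcnip3 (0.44 ± 0.11) and Kcne4 (1.29 ± 0.33) among the former, Kcnip1 (-0.68 ± 0.16) and Kcnip2 (-0.95 ± 0.23) among the latter. The Kv4 genes Kcnd2 and Kcnd1 and their KChIP genes thus held both risers and fallers in EZH2nHom. Between genotypes Kcnip4 was higher in EZH2nHom after saline (0.90 ± 0.21, adjusted p = 0.00658), the 1 auxiliary gene to pass, and after kainate 0 passed by edgeR, with 5 at an unadjusted p under 0.05.

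Scaffold and trafficking partners, 15 genes that place Kv channels at axons and synapses, gave 1 lower call in WT after kainate, Lgi1 (-0.29 ± 0.08), a secreted protein of Kv1 complexes. In EZH2nHom 8 of 15 fell and 0 rose, beside the 11.8% of all genes that fell. The 4 with the smallest p were Epb41l3 (-0.60 ± 0.09), Adam22 (-0.48 ± 0.10), Dlg2 (-0.52 ± 0.11) and Cntnap2 (-0.86 ± 0.19), which encodes Caspr2, the organizer of axonal Kv1 clusters. The Kv1 genes themselves had 0 calls by edgeR after kainate in either genotype, with 1 at an unadjusted p under 0.05 in EZH2nHom and 0 in WT. After saline Cntn2, the partner of Caspr2, was lower in EZH2nHom (-0.57 ± 0.12) and Epb41l3 higher (0.39 ± 0.09), and Cntn2 was also lower after kainate (-0.47 ± 0.13).

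Among potassium channels outside the Kv group, some changed alike in both genotypes. Of 10 tested K2P leak channel genes, Kcnk6 rose in WT (1.85 ± 0.31) and EZH2nHom (2 ± 0.32) after kainate and Kcnk9 fell in both (-0.72 ± 0.16 and -0.54 ± 0.17), with 2 called in WT and 5 in EZH2nHom. Of 13 tested inward rectifier genes, Kcnj10, the channel of astrocytes, rose in both (0.74 ± 0.18 and 1.17 ± 0.19), and Kcnj3 fell in EZH2nHom (-0.42 ± 0.12). Kcnt2, a sodium-activated channel gene, was the 1 of 11 calcium- and sodium-activated channel genes to pass, lower in both (-0.48 ± 0.10 and -0.71 ± 0.11). Beside these, 4 of 8 astrocyte markers rose in WT and 5 of 8 in EZH2nHom after kainate, with sums of 5970 to 6650 CPM in WT saline, 8630 to 10700 CPM in WT kainate, 4740 to 5310 CPM in EZH2nHom saline and 6360 to 10600 CPM in EZH2nHom kainate, and their part in these changes was not tested.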

How the data were processed

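RNA-seq read counts per Ensembl gene were taken as the authors deposited them, with genes from build mm39 and DESeq2 among the tools per the submitters' processing notes; the aligner, the counter and its use of strand are not given in the sources used here. Symbols of 32313 genes came from a table in which the authors deposited normalized count signal, a score, log2 fold changes and p-values. None of its values were used. Symbols of 20022 further genes came from a reference list of gene names. The Kv genes were chosen by the authors' symbols alone.
Counts were scaled by TMM, filtered by group with filterByExpr and fitted over 19 libraries in edgeR 4.0.16 (R 4.3.3; quasi-likelihood, robust) with 5 contrasts and Benjamini-Hochberg adjustment over 19234 genes. SE is the log2 change divided by the square root of F. CPM use the TMM-scaled library size; exon lengths came from GENCODE M21 (GRCm38), another build than that of the counts. The test was also run on simulated counts that held no batch, sex difference or outlying library, and that run does not bear on the calls here.
Values per library are printed for up to 12 called Kv genes with the smallest p and for fixed genes, and for other lists for at most 4 genes with the smallest p. The values of some Kv genes are not reported here. The Kv genes and lists were chosen with earlier results of these data known. Alternatives were another scaling, 2 filters, DESeq2 1.42.0, fewer libraries in the fit, covariates, a replicate block, a threshold of 0.01 and fits without each library in turn. Deviations of same-numbered WT saline and WT kainate libraries had correlations of 0.189 to 0.479 in 5 pairs, 3 of them best matched to their own number. For WT saline and EZH2nHom saline they were 0.095 to 0.576 in 5 pairs, also with 3. With EZH2nHom kainate they were -0.0157 to 0.165 (EZH2nHom saline) and -0.145 to 0.527 (WT kainate), in 4 pairs each. These values do not settle whether the numbers pair, and the main fit used no pairing.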

Additional observations from a re-analysis of the deposited data

Results flagged for a closer look

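Of 148 sets of a Kv gene and a group, 9 had 1 library far from the others by Dixon's criterion at the 95% level, which chance reaches in about 1 in 20 sets. After kainate, EZH2nHom replicate 2 was low in Kcna6 (32.2 CPM, others 67.9 to 72.2 CPM) and in Kcng1 (4.37 CPM, others 9.58 to 11.2 CPM), and EZH2nHom replicate 4 was high in Kcna5 (2.55 CPM, others 1.54 to 1.64 CPM). WT kainate replicate 4 was low in Kcnc4 (20.1 CPM, others 30.7 to 35.8 CPM) and in Kcnh1 (32.4 CPM, others 44.8 to 49.4 CPM). WT kainate replicate 3 was low in Kcng2 (1.85 CPM, others 4.04 to 5.06 CPM). After saline, EZH2nHom replicate 5 was high in Kcna6 (74 CPM, others 57.5 to 61.3 CPM) and low in Kcns3 (6.93 CPM, others 8.62 to 9.27 CPM), and WT replicate 4 was high in Kcnh2 (9.99 CPM, others 8.13 to 8.41 CPM). No cause was tested for these values.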

How the results depend on the processing

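For kainate in WT the 2 called Kv genes became 1 with DESeq2 size factors, with no filter, with the stricter filter, with the structural RNA covariate and at adjusted p under 0.01, and 1 to 4 without each library in turn (4 without kainate replicate 5, 3 without kainate replicate 1, 1 without any other). With the code prefix as a block (6 libraries) edgeR called 0 Kv genes, with 2 at an unadjusted p under 0.05 and 0 of all genes, and Kcng3 was at -1.25 (adjusted p = 0.406); this setting changed both the block and the number of libraries. For kainate in EZH2nHom the 10 became 4 at adjusted p under 0.01 and 8 to 12 without each library, the 12 without kainate replicate 2. For genotype after saline the 4 became 14 in a fit to only these groups, 1 with the structural RNA covariate and 3 to 5 without each library. For genotype after kainate the 4 became 1 with no filter, 1 with the sex covariate, 2 with the structural RNA covariate, 0 in a fit to only these groups (6 at an unadjusted p under 0.05), 0 at adjusted p under 0.01, and 1 to 10 without each library, the 10 without WT kainate replicate 4, 1 without WT kainate replicate 1, 2 or 5 and 2 without EZH2nHom kainate replicate 3 or 4. The causes were not tested. DESeq2 called 3, 11, 6 and 6 Kv genes in these 4 comparisons. Apart from the code prefix block, the counts of this section are given without the share over all genes in each fit. They thus do not show whether Kv genes gained or lost calls more than other genes did. With the replicate block, fitted over all 19 libraries, the counts were 3, 11, 5 and 3, and 0 for the difference of responses. In WT it changed the call of Kcnc2 and of no other Kv gene. It is not a paired test, since whether the numbers pair is not known. EZH2nHom kainate replicates 1 to 4 are numbered 2 to 5 in the count columns, and the block used the replicate numbers of the titles. The difference of responses had 0 called Kv genes under every alternative run. Over the values of the named genes, 826 kept their side of the threshold, 54 lost the call and 17 gained it. No value that passed in either fit changed sign, and 16 that passed in neither did, such as Kcna2 between genotypes after saline (-0.22, and 0.16 with the structural RNA covariate). Kcna7, Kcna10 and Kcnv2 could not be tested at this depth.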

Other observations

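The auxiliary subunit gene Kcne2 had log2 changes after kainate of -1.08 in WT and -2.77 in EZH2nHom, and the inward rectifier gene Kcnj13 of -1.39 and -3.19, and none passed. Both genes are known from the choroid plexus, and Kcnj13 is itself 1 of the 7 choroid plexus markers listed. These markers summed to 19.7 to 4000 CPM in WT saline, 29.5 to 1170 CPM in WT kainate, 37.2 to 3750 CPM in EZH2nHom saline and 15 to 690 CPM in EZH2nHom kainate. Their part in the values of Kcne2 was not tested.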
